A study of Mus musculus with 6 samples.

Results

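The lysyl oxidases are a family of 5 genes, Lox, Loxl1, Loxl2, Loxl3 and Loxl4, and are described here in dermal fibroblasts sorted from mouse skin. Members were taken by name, using the probe set that the platform annotation gives to a single gene. Of the 5 genes, 4 had such a probe set, 1 each, among 22180 named genes on the array. Both Loxl2 probe sets are annotated to a second gene as well, so Loxl2 was not analysed here as a single gene. The KrP samples held fibroblasts from ventral skin with a nipple-like character, taken from females of the K14-PTHrP (KrP) transgenic line. Its transgene, parathyroid hormone-related protein, is under the promoter of keratin 14, which is active in basal keratinocytes rather than in fibroblasts. The KrP fibroblasts were set against fibroblasts from ventral skin of wild-type (WT) female littermates, described in the labels as telogen, the resting phase of the hair cycle. All mice were on a C57BL/6 background and 8 to 12 weeks old. Each group had 3 samples with 1 array each, and the cells were pooled before sorting for CD140 and against CD31, CD45, CD117 and CD49f. The labels name 3 mice as the source of skin without saying whether that number is per sample or per genotype, so the p-values reflect the spread among these samples alone, and part of it may be technical.

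Lysyl oxidases are secreted copper enzymes. They oxidise the amino group of lysine and hydroxylysine side chains in collagen and elastin, and the aldehydes that result then condense into the covalent cross-links that give dermis its tensile strength and recoil. Lox and Loxl1 are made with a propeptide that extracellular proteases remove, and Loxl1 is needed for the upkeep of elastic fibres in mice. Loxl2, Loxl3 and Loxl4 carry scavenger receptor cysteine-rich domains in front of the shared catalytic domain.

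The values are log2 expression values made by the authors, and differences were taken as KrP minus WT on that scale. The 6 arrays had medians of 6.34 to 6.43. Over all probe sets, 2 arrays of a group correlated by 0.986 to 0.994 and 2 arrays of different groups by 0.975 to 0.989, and KrP 2 correlated by 0.989 with each WT array. Olfactory receptor genes, which have no known broad use in fibroblasts, served as a guide to background, and the 95th percentile of the 1105 measured was 6.28. All 4 measured lysyl oxidases lay above it in every array.

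Loxl4 was the 1 lysyl oxidase that passed the test, and it fell. Loxl4 had log2 values of 10.02, 10.29 and 10.17 in KrP samples 1, 2 and 3, against 10.88, 10.90 and 10.66 in WT samples 1, 2 and 3. All KrP samples lay below all WT samples. The group means were 10.16 ± 0.14 in KrP and 10.81 ± 0.13 in WT samples (SD, n = 3 each). The difference was -0.65 ± 0.12 (SE, 95% interval -0.93 to -0.38), a 1.57-fold lower level in KrP samples, with a limma adjusted p of 0.0374. By its unadjusted p, Loxl4 ranked 350 of the 22180 genes. Loxl4 is a lysyl oxidase with scavenger receptor domains that acts on collagen.

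The count of 1 lysyl oxidase of 4 is read against all genes, of which 2.18% were called, 1.03% lower and 1.15% higher in KrP samples. The call of Loxl4 depended on nearly every sample. Its limma adjusted p was 0.0736 without KrP 1, 0.191 without KrP 3, 0.105 without WT 1, 0.115 without WT 2 and 0.101 without WT 3, and 0.0222 without KrP 2. The difference itself stayed between -0.73 and -0.58 in these 6 fits. Over all genes, the main fit called 255 higher and 228 lower. In the fits where Loxl4 lost its call, 45 to 173 were called higher and 40 to 148 lower. Without KrP 2 the counts were 682 and 434.

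The sequence before the start of Loxl4, the member that passed, is given for reference. RefSeq (GRCm38.p6) places these 250 bases at chr19:42612807-42613056 on the minus strand, and they are written 5′ to 3′ with GC boxes (GGGCGG) in capitals.
Loxl4 upstream: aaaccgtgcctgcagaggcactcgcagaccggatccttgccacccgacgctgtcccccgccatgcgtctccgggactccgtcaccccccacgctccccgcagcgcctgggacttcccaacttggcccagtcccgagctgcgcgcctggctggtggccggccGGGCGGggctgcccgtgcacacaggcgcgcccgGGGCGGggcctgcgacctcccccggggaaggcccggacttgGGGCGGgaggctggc
The stretch has a GC content of 76.0%, against a median of 52.4% over 32851 promoters of the same length. It holds 3 GC boxes, the 6 letters known to bind Sp1-type factors, which begin 89, 56 and 15 bases before the start and all lie on the strand shown, and 32.7% of promoters hold this motif on either strand. Neither the hypoxia response core ACGTG nor the TATA motif TATAAA was found on either strand, and 16.6% and 12.4% of promoters hold these. The arrays do not measure this sequence, and a motif match is a description only.

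**Figure D1:**
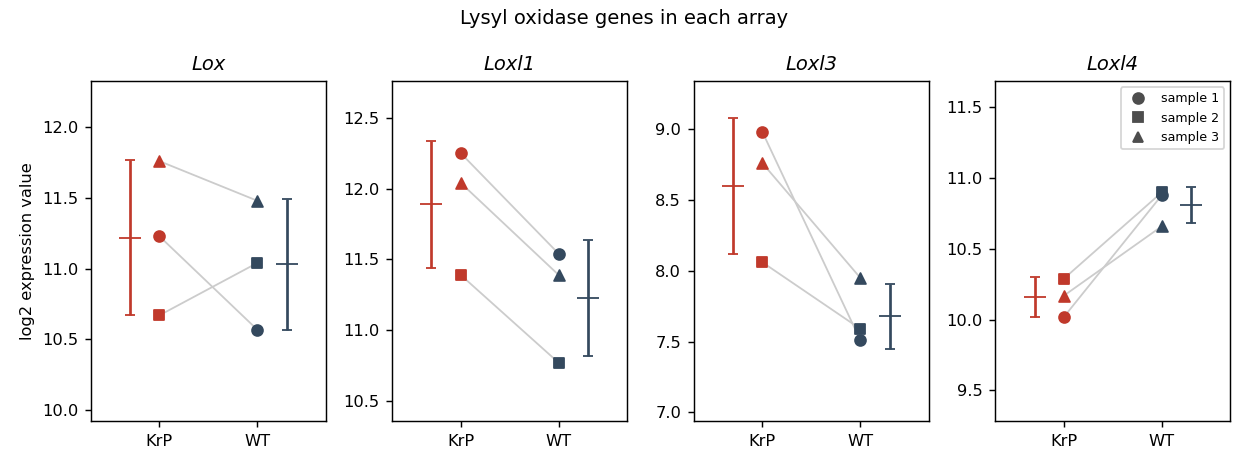
Log2 expression values (vertical axis) of the 4 measured lysyl oxidases in KrP and WT samples. Symbols mark the sample number, grey lines join samples with the same number, and bars beside the points are the mean and SD of 3 arrays. Loxl3 values of KrP samples all lie above 7.95, the highest WT value, and Loxl4 values of KrP samples all lie below 10.66, the lowest WT value.

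Loxl3 had the largest difference in the family, in the opposite direction, without passing the unpaired test. Its log2 values were 8.98, 8.06 and 8.76 in KrP samples 1 to 3, against 7.51, 7.59 and 7.95 in WT samples 1 to 3. The groups did not overlap, and KrP 2 was the nearest to the WT samples. Of the 4 measured members, Loxl3 and Loxl4 had groups that did not overlap, which held for 20.3% of all genes, 11.4% with KrP samples all above WT samples and 8.93% with them all below. Loxl3 averaged 8.60 ± 0.48 in KrP and 7.68 ± 0.23 in WT samples (SD, n = 3 each). The difference was 0.92 ± 0.24 (SE, 95% interval 0.36 to 1.47), or 1.89-fold, with a limma adjusted p of 0.110. With the replicate number as a block the adjusted p was 0.0337, and without KrP 2 in the unpaired fit it was 0.0114. Loxl3 is a lysyl oxidase needed for palate and spine development in mice, and it lay closest to background of the 4 genes, 2.32 above the olfactory 95th percentile in KrP and 1.40 above it in WT samples.

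Loxl1, the lysyl oxidase tied to elastic fibre upkeep, was higher in every KrP sample than in the WT sample of the same number. Its log2 values were 12.25, 11.39 and 12.04 in KrP samples 1 to 3, against 11.54, 10.77 and 11.39 in WT samples 1 to 3. The groups overlapped, since KrP 2 was below WT 1 and equal to WT 3. Same-numbered samples differed by 0.71, 0.62 and 0.65, a much narrower spread than the SD within groups, 0.45 in KrP and 0.41 in WT samples. The mean difference was 0.66 (1.58-fold, 95% interval 0.07 to 1.25). Its SE was 0.26 in the unpaired fit, with a limma adjusted p of 0.260, and 0.07 with the replicate block, with a limma adjusted p of 0.00479.

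With the block, 3 of the 4 genes passed, Loxl1 and Loxl3 as higher and Loxl4 as lower (limma adjusted p = 0.0144). In that fit 8.35% of all genes were called, 5.33% higher and 3.02% lower. The pairing behind the block was read from the data and is not stated in the labels, so its p-values may be too small.

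Lox, the founding member and the main cross-linking enzyme of collagen and elastin, showed no difference beyond its spread. Its log2 values were 11.23, 10.67 and 11.76 in KrP samples 1 to 3, against 10.57, 11.04 and 11.48 in WT samples 1 to 3. The groups overlapped, and the same-numbered samples differed by 0.66, -0.37 and 0.28. The means were 11.22 ± 0.55 in KrP and 11.03 ± 0.46 in WT samples (SD, n = 3 each). The difference of 0.19 had a 95% interval of -0.50 to 0.88 (limma adjusted p = 0.828, or 0.617 with the replicate block), so these arrays do not settle whether Lox changed in either direction by up to that much. Its sign turned without KrP 3 (-0.08) and without WT 1 (-0.04), and it was 0.46 without KrP 2.

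The 4 genes also differed in how much they varied between samples of 1 group. The pooled SD within groups was 0.50 for Lox, 0.43 for Loxl1, 0.38 for Loxl3 and 0.13 for Loxl4. Of all genes, 97.6% had a lower pooled SD than Lox, 95.6% a lower one than Loxl1 and 93.3% a lower one than Loxl3, against 34.8% for Loxl4. Loxl1 and Loxl4 had differences of nearly the same size, 0.66 and -0.65, with an SE of 0.26 for Loxl1 and 0.12 for Loxl4.

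**Figure D2:**
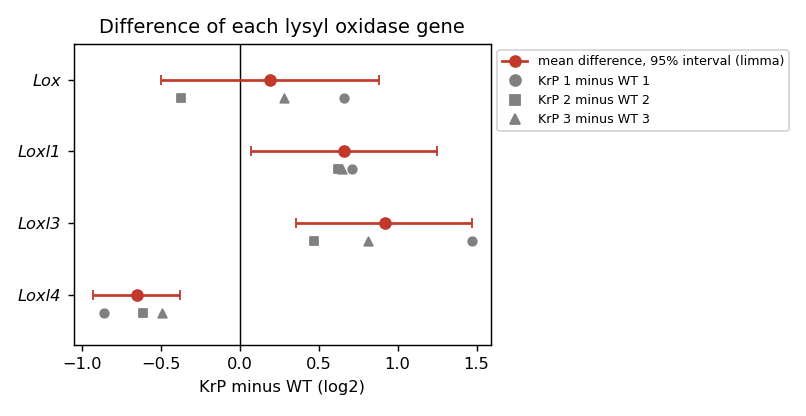
Difference between KrP and WT samples (horizontal axis, log2) for each lysyl oxidase. Red points and bars are the mean difference with its 95% interval from the unpaired limma fit, and grey symbols below them are the 3 differences between same-numbered samples. The Loxl1 symbols sit between 0.62 and 0.71, whereas the Lox symbols run from -0.37 to 0.66.

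Whether the members changed unequally was tested within each array, by taking the log2 value of 1 member minus that of another. A level cannot be compared between probe sets, but the change of such a difference between groups can. Of 6 pairs, 3 had KrP and WT samples that did not overlap. These 3 pairs share members, so they are not separate observations. The share of such pairs over all genes was not computed, so the count is a description only. Loxl3 over Loxl4 moved most. Loxl3 was higher and Loxl4 lower in all KrP samples, so their difference had to separate the groups. It restates the 2 single-gene results and is no separate evidence. This difference was -1.04, -2.23 and -1.41 in KrP samples 1 to 3, against -3.37, -3.31 and -2.71 in WT samples 1 to 3, a change of 1.57 ± 0.41 (SE). Loxl1 over Loxl4 changed by 1.31 ± 0.43, and Lox over Loxl3 by -0.73 ± 0.26. Each of these 3 pairs had a two-sided exact permutation p of 0.1, the smallest that 3 against 3 arrays allow, or 0.2 after Benjamini-Hochberg adjustment over the 6 pairs. No pair could therefore pass a threshold of 0.05.

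The other 3 pairs overlapped between groups. Lox over Loxl4 changed by 0.84 ± 0.49 (exact permutation p = 0.2), Lox over Loxl1 by -0.47 ± 0.44 (p = 0.3, exact permutation) and Loxl1 over Loxl3 by -0.26 ± 0.25 (p = 0.4, exact permutation). Without 1 sample, Lox over Loxl1 ran from -0.85 (without WT 1) to -0.23 (without WT 2), and Loxl1 over Loxl3 from -0.44 (without WT 2) to -0.02 (without WT 1). Loxl1 over Loxl3 was nearly constant in KrP samples, at 3.27, 3.33 and 3.28, and ran from 3.18 to 4.03 in WT samples.

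**Figure D3:**
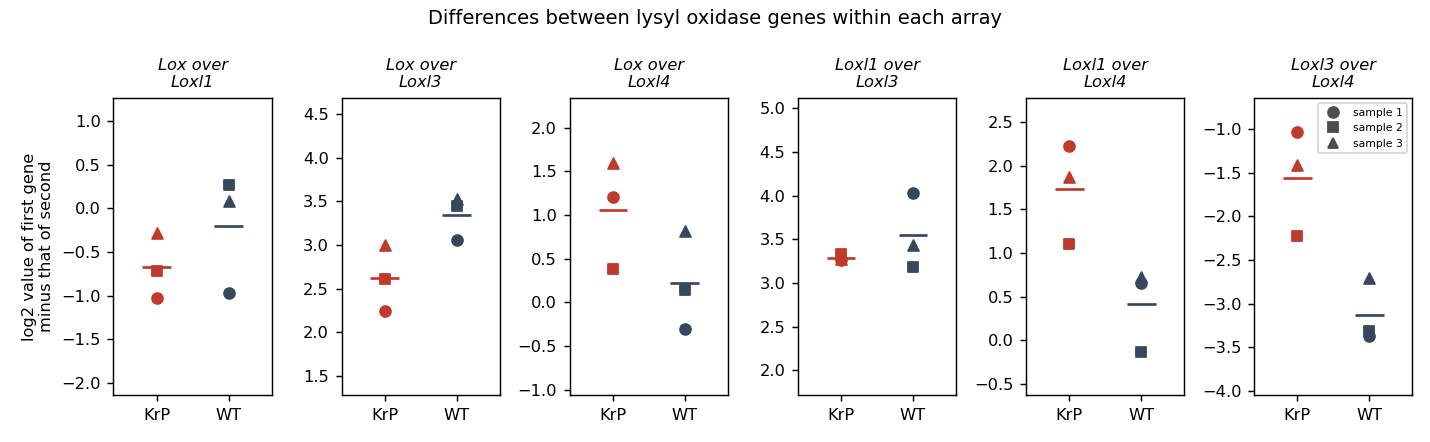
Log2 value of the first gene minus that of the second (vertical axis) in each array, for the 6 pairs of lysyl oxidases, with KrP samples left of WT samples, symbols for the sample number and lines at group means. Groups do not overlap for Lox over Loxl3, Loxl1 over Loxl4 and Loxl3 over Loxl4, where the means differ by -0.73, 1.31 and 1.57.

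Genes with the most similar pattern over the 6 arrays differed by member. Among 12226 other genes above background, Loxl4 was closest to the myosin chaperone Unc45b (Pearson r = 0.996), Rsbn1 (0.991) and the gelatinase Mmp9 (0.990). Mmp9 had log2 values of 7.29, 7.78 and 7.28 in KrP samples, against 9.49, 9.49 and 8.97 in WT samples (limma adjusted p = 0.0051). Loxl1 was closest to Narf (0.998), the cullin Cul7 (0.998) and the 14-3-3 protein Ywhah (0.997). Cul7 had 10.27, 8.82 and 9.86 in KrP samples 1 to 3, against 9.14, 7.65 and 8.77 in WT samples 1 to 3, the same drop at number 2 in both groups that Loxl1 shows. Loxl3 was closest to the progestin receptor Paqr7 (0.994), Pou3f4 (0.993) and Fbxl20 (0.992), and Lox to Trhr2 (0.979), Foxa2 (0.978) and Golgb1 (0.973). These coefficients describe 6 arrays that share 2 groups, and with 12226 genes searched some are high by the search alone. Trhr2, at 6.43 to 6.70, and Pou3f4, at 6.28 to 6.67, lay close to the olfactory 95th percentile of 6.28. Between the members, r over the 6 arrays was 0.86 for Loxl1 with Loxl3 and -0.95 for Loxl3 with Loxl4.

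The substrates of the enzymes were examined next. Counts of called genes in this and the later lists are read against the shares over all genes. These were 1.15% higher and 1.03% lower, or 5.33% and 3.02% with the replicate block. Of 11 fibrillar collagen genes, 1 rose and 0 fell, with a median difference of 0.57 against 0.01 over all genes (4 rose with the replicate block). Col5a3, a minor fibrillar collagen chain, rose by 0.66 ± 0.12 (SE, limma adjusted p = 0.0347). Col1a1, a chain of type I collagen and the main dermal substrate of Lox, had values of 12.44, 11.26 and 12.79 in KrP samples 1 to 3, against 10.33, 10.78 and 11.84 in WT samples 1 to 3. Its groups overlapped, and its difference was 1.18 ± 0.46 (limma adjusted p = 0.258, or 0.0486 with the block). Col3a1, the chain of type III collagen, differed by 0.84 ± 0.53 (limma adjusted p = 0.498). Without KrP 2 the Col3a1 difference was 1.42, and without KrP 3 it was 0.41.

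Elastin showed the same order of arrays as Lox. Eln had 8.39, 7.33 and 9.75 in KrP samples 1 to 3, against 7.10, 7.54 and 8.45 in WT samples 1 to 3 (difference 0.79 ± 0.58 SE, limma adjusted p = 0.565). The Eln difference was 0.16 without KrP 3, 0.50 without WT 1 and 1.37 without KrP 2. For both genes KrP 3 was highest, followed by WT 3, KrP 1, WT 2, KrP 2 and WT 1. This shared order was noticed after the values were seen. Of all genes besides Lox, 7 had exactly this order, or 0.0316%, and Eln is among them. Spearman's rho with Lox over the 6 arrays was 0.94 for Col3a1 and 0.89 for both Col1a1 and Col1a2, and that of Loxl1 with Eln was 0.29. These are descriptions of 6 arrays that share groups and sample numbers.

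**Figure D4:**
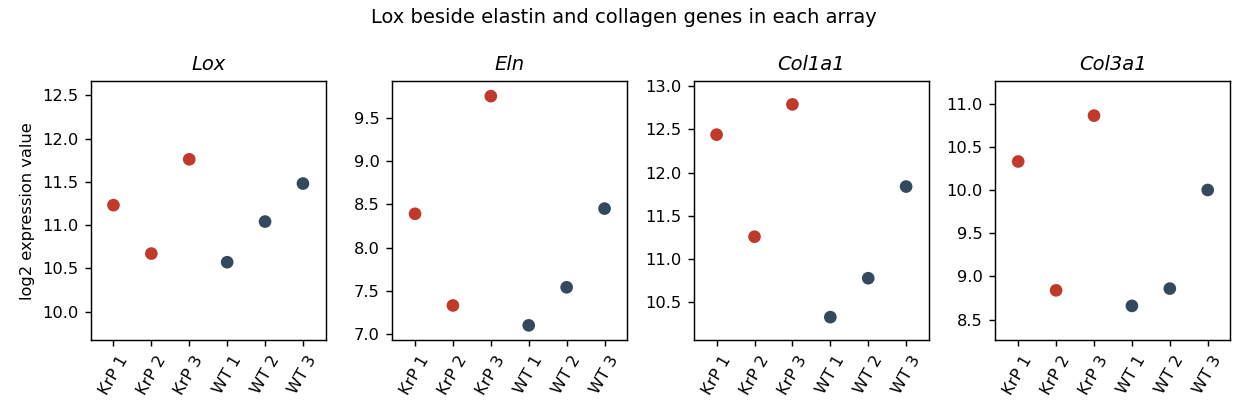
Log2 expression values (vertical axis) of Lox, elastin (Eln) and the collagen genes Col1a1 and Col3a1 in each KrP (red) and WT (dark) array, on axes of equal span. In each panel KrP 3 is the highest array and WT 1 the lowest, and WT 3 lies above KrP 2.

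Scaffold genes of the elastic fibre bring elastin and lysyl oxidases together. With elastin, 15 such genes were measured, of which 1 rose and 0 fell (5 rose and 4 fell with the block), with a median of 0.04. Ltbp3, which binds latent TGF-beta to microfibrils, rose by 0.87 ± 0.16 (limma adjusted p = 0.0383). Fbln5, the fibulin that binds elastin and Loxl1, had 10.35, 9.88 and 10.39 in KrP samples 1 to 3, against 10.85, 10.79 and 10.95 in WT samples 1 to 3. Its groups did not overlap, and its difference of -0.66 ± 0.15 had a limma adjusted p of 0.0752, or 0.0169 with the block.

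Type IV collagen of basement membranes, a substrate of Loxl2, included 2 genes that fell and none that rose among 6, with a median of -0.18. Col4a2 had 9.51, 9.52 and 9.40 in KrP samples 1 to 3, against 10.23, 10.20 and 10.13 in WT samples 1 to 3 (-0.71 ± 0.11 SE, limma adjusted p = 0.0169). Col4a1 had 9.88, 9.75 and 9.74, against 10.49, 10.34 and 10.50 (-0.65 ± 0.11 SE, limma adjusted p = 0.0257). Both had a difference close to that of Loxl4, and the 4 other chains had means over the 6 arrays below the olfactory 95th percentile.

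Proteins that mature lysyl oxidases and dock them on the matrix changed in both directions. Of 12 measured, 1 rose and 1 fell, with a median of -0.13 (3 rose and 4 fell with the block). Tll1, a protease related to Bmp1 that can release the Lox propeptide, had 6.39, 6.88 and 6.46 in KrP samples 1 to 3, against 8.91, 8.65 and 8.58 in WT samples 1 to 3. Its difference was -2.14 ± 0.17 (limma adjusted p = 0.00162), and it passed in all 16 alternative fits. Its KrP values were close to the olfactory 95th percentile of 6.28, so the size of its fall may be understated. Bmp1 itself, the main protease of the Lox propeptide, had 11.55, 11.24 and 11.55 in KrP samples, against 11.37, 11.67 and 11.62 in WT samples (-0.11 ± 0.12, limma adjusted p = 0.753).

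Adamts14, a procollagen N-propeptidase, rose by 1.21 ± 0.20 (limma adjusted p = 0.0248). Fn1 and Postn encode fibronectin and periostin, matrix proteins that bind Bmp1 and help to activate Lox. Fn1 differed by 0.46 ± 0.14 (limma adjusted p = 0.154, or 0.0471 with the block) and Postn by 0.60 ± 0.17 (limma adjusted p = 0.137, or 0.0483 with the block). For both, every KrP sample lay above every WT sample. Without WT 1 the differences were 0.28 for Fn1 and 0.40 for Postn. Adamts2 and Efemp2 had no single-gene probe set and were not analysed here, as was the case for Commd1, Fbn1, Plod3, Fkbp10 and Ankrd37 of the other lists.

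Of 13 genes for copper supply, on which lysyl oxidase activity depends, 1 rose and 0 fell, with a median of 0.21 (2 rose with the block). Steap2, a metalloreductase that can reduce copper before uptake, had 9.39, 8.25 and 8.89 in KrP samples 1 to 3, against 7.27, 7.16 and 7.28 in WT samples 1 to 3 (1.61 ± 0.26 SE, limma adjusted p = 0.0223). Atp7a, the pump that loads copper onto lysyl oxidases in the secretory pathway, had 10.56, 10.95 and 10.54 in KrP samples, against 10.51, 10.66 and 10.59 in WT samples. Its groups overlapped, with a difference of 0.10 ± 0.13 (limma adjusted p = 0.798), and its sign turned without KrP 2 (-0.04).

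Enzymes and chaperones that modify collagen lysines before cross-linking included 2 genes that rose and none that fell among 10, with a median of 0.37 (5 rose with the block). Plod1 and Plod2, lysyl hydroxylases that make the hydroxylysines used in stable cross-links, differed by 1.28 ± 0.18 (limma adjusted p = 0.0130) and 1.54 ± 0.30 (limma adjusted p = 0.0450). All 10 genes had a difference above 0, from 0.01 to 1.54. The share of all genes with a difference above 0 was not computed, so this count is a description only. Colgalt2, with the difference of 0.01, had a mean of 5.67 in both groups, below the olfactory 95th percentile of 6.28.

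Other enzymes that cross-link matrix proteins moved both ways. Of 10 genes, 1 was called higher and 1 lower in both fits, and the median was 0.01. F13a1, the transglutaminase of the clotting system, had 6.46, 7.06 and 6.99 in KrP samples 1 to 3, against 9.34, 9.23 and 9.48 in WT samples 1 to 3 (-2.51 ± 0.18 SE, limma adjusted p = 0.00126). Its KrP mean lay 0.56 above the olfactory 95th percentile, so the size of this fall may also be understated. Tgm1, a transglutaminase best known from keratinocytes, rose by 1.22 ± 0.24 (limma adjusted p = 0.0451). Tgm2, the tissue transglutaminase, differed by 0.35 ± 0.31 (limma adjusted p = 0.650; 0.75 without KrP 1, 0.07 without KrP 2 and 0.23 without KrP 3) and Pxdn, a peroxidase that cross-links collagen IV, by -0.10 ± 0.19 (limma adjusted p = 0.863). None of the 3 other copper amine oxidases, Aoc1, Aoc2 and Aoc3, passed the test in either fit.

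Genes of 2 pathways known to raise lysyl oxidase expression were counted as well. Of 11 TGF-beta response genes, 1 rose and 1 fell, and their median was -0.30. The block gave 5 higher and 5 lower. Timp1, an inhibitor of metalloproteinases, rose by 1.00 ± 0.12 (limma adjusted p = 0.00707). Tgfb1, the ligand, had 10.41, 10.94 and 10.74 in KrP samples 1 to 3, against 11.63, 12.05 and 11.68 in WT samples 1 to 3 (-1.09 ± 0.16 SE, limma adjusted p = 0.0175). Of 12 hypoxia response genes, 0 rose and 1 fell, or 2 in the block fit. The gene that fell in both fits was Ndrg1, a stress-induced gene, at -1.15 ± 0.16 (limma adjusted p = 0.0130), while Vegfa, the growth factor of vessels, differed by 0.00 ± 0.08.

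Over the 10 pathway lists, which were chosen with earlier results of these data known, 98 distinct genes were measured. Of these, 8 rose and 6 fell, where 1.15% of all genes were called higher and 1.03% lower. Without KrP 3, 12 of these 14 calls were lost, and without WT 3, 11. Without WT 2, 10 were lost, without WT 1, 8, without KrP 1, 3 and without KrP 2, 0. Tll1 and F13a1 kept their calls in each of these fits.

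**Figure D5:**
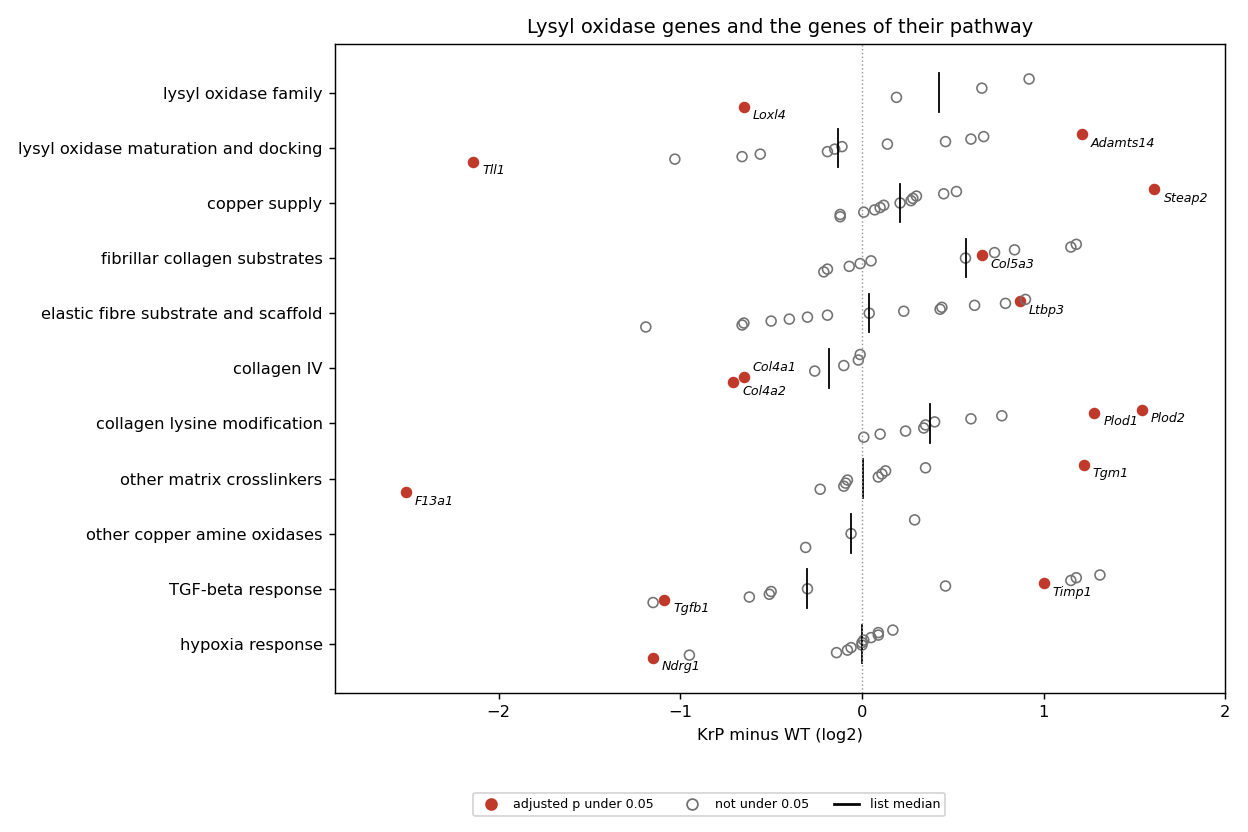
Difference between KrP and WT samples (horizontal axis, log2) of each measured lysyl oxidase and of the genes in 10 related lists, 1 point per gene. Filled red points have a limma adjusted p under 0.05 and are named, open points do not, and black bars are list medians, which run from -0.30 for TGF-beta response to 0.57 for fibrillar collagens.

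The labelled cell type was checked against markers. All 10 fibroblast markers lay above background, and their mean log2 value per array was 11.85 to 12.38 in KrP and 11.46 to 12.02 in WT samples. None of the 10 passed limma (5 were higher and 0 lower at an unadjusted p under 0.05, and 3 were higher with the block). Some endothelial genes were lower, as were Loxl4, Col4a1 and Col4a2. Of 8 endothelial markers, 2 fell, or 3 in the blocked fit, and none rose. These were Tek (-0.76, limma adjusted p = 0.0386) and Cldn5 (-0.95, limma adjusted p = 0.0130). Their KrP means, 5.76 for Tek and 6.21 for Cldn5, lay below the olfactory 95th percentile of 6.28, against WT means of 6.52 and 7.16, so the sizes of these differences are uncertain. Kdr, a receptor for vascular growth factors, lay above background at 7.30 in KrP and 8.71 in WT samples, with no overlap between groups (-1.41, limma adjusted p = 0.0658, or 0.00158 with the block). The endothelial list mean was 6.43 to 6.64 in KrP and 6.62 to 6.94 in WT samples. The defining marker Pecam1 was near background in both groups, at 6.68 in KrP and 6.73 in WT samples, and Cdh5 was at 8.33 in KrP and 7.79 in WT samples (limma adjusted p = 0.304). Of 7 mural and smooth muscle markers, Cspg4 fell (-1.10, limma adjusted p = 0.0298) and none rose, and with the block Cspg4 was lower and Acta2 higher. Acta2, the smooth muscle actin of contractile cells, was higher in all KrP than in all WT samples (1.31, limma adjusted p = 0.154, or 0.0138 with the block). The mural list mean was 7.20 to 7.55 in KrP and 7.20 to 7.42 in WT samples. Among 8 immune markers Csf1r rose (0.73, limma adjusted p = 0.0347) and none fell, and with the block Cd14 was higher too (0.55, limma adjusted p = 0.046, or 0.724 without the block). Ptprc, which defines blood cells, was 1 of 5 immune markers below background, at 4.65 in KrP and 4.85 in WT samples. The 3 above background were Cd68 (9.34 in KrP and 9.48 in WT samples), Cd14 (9.90 and 9.35) and Csf1r (7.92 and 7.19). The immune list mean was 6.65 to 6.77 in KrP and 6.60 to 6.82 in WT samples. No marker of keratinocytes, melanocytes, Schwann cells, adipocytes or skeletal muscle passed, but a test of groups does not show a single sample that differs. WT 2 had the highest values of Krt14 (7.59, against 6.52 to 6.78 in the other arrays) and Cdh1 (7.74, against 6.44 to 6.70). The same held for Epcam (6.33, against 4.89 to 5.21), but not for the keratinocyte markers Krt15, Krt10 and Itga6. The part of these cells in the lysyl oxidase values was not tested. In sorted populations of this kind, fewer cells of a type and less RNA per cell cannot be told apart.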

How the data were processed

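Fibroblast RNA from 3 KrP and 3 WT samples was labelled (100 ng each) and measured on 1 array per sample. The authors deposited log2 expression values, for which the submitters' processing notes list RMA and Partek, with no version or role. The genome build is not given in the sources used here, nor is any filter on probe sets. Of 34390 probe sets, 23521 had 1 gene symbol, 1814 several and 9055 none. Names were updated by gene ID for 23328 of the single-gene probe sets, and for each gene the probe set of highest mean was kept, leaving 22180 genes. Arrays carry no read depth, so their number limits the precision.

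All genes were fitted together in limma (version 3.58.1, R version 4.3.3; eBayes with trend, unpaired, no filter), with Benjamini-Hochberg adjustment and a threshold of 0.05. The fit was tested on simulated data. Differences between members were tested with exact permutation in SciPy 1.17.1. The design named 10 pairs of members, and 6 could be formed from the 4 genes measured. Members and gene lists were chosen with earlier results of these data known. The text names all members, up to 3 called genes per list and direction, 12 genes set by role (of which Efemp2 was not measured), and the 3 most similar genes per member. Marker genes, Vegfa, and the order of arrays shared with Eln, Col1a1, Col1a2 and Col3a1 were chosen after their values were seen.

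Groups share the sample numbers 1 to 3. Deviations from group means correlated over genes by 0.414, 0.350 and 0.120 between same-numbered samples, each above 0.1, so a fit with the replicate number as a block is quoted beside the calls and counts it alters. The pairing comes from the data, not from a label. The descriptions of KrP 2 and KrP 3 name a keratin other than K14, and the genotype labels were followed. Python 3.11.15 with matplotlib 3.10.9 drew the figures.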

Additional observations from a re-analysis of the deposited data

How the results depend on the processing

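Alternatives were 9 changes to the fit, each sample left out in turn, and the fit without both samples numbered 2, which was chosen after seeing the data. Loxl4 stayed lower in all 16 and lost its call without any 1 sample other than KrP 2 (-0.73 to -0.58). Loxl1 and Loxl3 stayed higher in all 16. The replicate block, no trend, a robust variance prior, filters on low genes and the mean of probe sets left each difference unchanged. In those fits the sign of a member could not turn. Both Loxl1 and Loxl3 passed with the replicate block (0.66 and 0.92), with array weights (0.67 and 0.90) and without both samples numbered 2 (0.68 and 1.14). Loxl3 also passed without KrP 2 (1.19). Without 1 sample, the range was 0.43 to 0.91 for Loxl1 and 0.73 to 1.19 for Loxl3. The array weights were 7.91 for KrP 3 and 2.66 for WT 3, against 0.409 to 0.626 for the other arrays. The weighted fit therefore rests mostly on 1 array per group. Lox ran from -0.08 to 0.46 without 1 sample and turned negative without KrP 3 (-0.08) and WT 1 (-0.04). For the changes between members 8 alternatives were run. The replicate block and the mean of probe sets could not move them, since groups share sample numbers and each member had 1 probe set. Without 1 sample, each change moved by less than 1 SD of the replicates. Even so, Lox over Loxl1 ran from -0.85 to -0.23 and Loxl1 over Loxl3 from -0.44 to -0.02.
The main fit called 255 genes higher and 228 lower. These counts were 1182 and 669 with the replicate block, 3759 and 2651 with array weights, 496 and 394 without both samples numbered 2, and 45 to 682 and 40 to 434 without 1 sample. In the pathway lists together, 8 higher and 6 lower became 22 and 16 with the block, 37 and 17 with array weights, 4 higher with quantile normalisation, and 0 to 13 and 2 to 12 without 1 sample. Of 14 called list genes, 2 kept their call in every alternative. Quantile normalisation ended the calls of Col5a3, Ltbp3, Plod2 and Tgm1, and median centring those of Plod2 and Tgm1. Atp7a turned to -0.02 with array weights, -0.04 without KrP 2 (-0.04 to 0.17 without 1 sample) and -0.00 without both samples numbered 2, Bmp1 to 0.06 without both samples numbered 2, and Pxdn to 0.10 without WT 1 (-0.29 to 0.10 without 1 sample). The cause of these changes was not tested.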

Other observations

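Both probe sets annotated jointly to Loxl2 and Gm21451 were higher on average in KrP samples, and their signal cannot be assigned to either gene. The brighter had log2 values of 11.75, 11.09 and 11.78 in KrP samples 1 to 3, against 10.86, 11.16 and 11.09 in WT samples 1 to 3. Its difference was 0.50 ± 0.19 (SE; limma adjusted p = 0.299 over all probe sets, or 0.192 with the replicate block). The other had 9.40, 8.91 and 9.52 in KrP samples 1 to 3, against 8.59, 8.88 and 9.01 in WT samples 1 to 3, with a difference of 0.45 ± 0.19 (limma adjusted p = 0.354, or 0.184 with the block). In both, KrP 2 lay within the range of the WT samples.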
